A study of Caenorhabditis elegans with 2 samples.

Results

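Long intergenic gaps between neighbouring genes on the same strand were examined for REPO-1 occupancy in whole young adult Caenorhabditis elegans. A gap was the sequence between adjacent protein-coding genes in start order, on chromosomes I to V, that point the same way, do not overlap and lie more than 500 bp apart. The gap had to be free of any other protein-coding gene, and 5454 of 9465 autosomal gaps over 500 bp met this rule. Their median length was 1538.5 bp and the longest was 70728 bp, and together they made up 15.36 Mb, or 18.6% of the autosomal sequence. The members were taken from the Ensembl annotation of WBcel235 (the assembly also called ce11), and no ChIP-seq value entered the rule. The rule was chosen with earlier results of these data known. Of 1789 replicated peaks, 1489 lay on autosomes and 283 of these had their summit in such a gap (19.0%, Wilson 95% interval 17.1 to 21.1). The 283 summits belonged to 278 regions with different coordinates in 248 gaps. Some of these regions overlap, as after eef-2 and hsp-6, so they are not all separate peaks.

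The worms were of strain OP688, which carries the integrated transgene wgIs688 in an unc-119(tm4063) III background and expresses REPO-1 with a GFP-FLAG tag at its C terminus. There was 1 group, with 2 biological replicates, each of mixed-sex worms taken 53 hours after release from starvation-synchronised first larval stage. Sonicated chromatin carrying the tagged transgene product was recovered through GFP, from all tissues together. No untagged strain or other group was compared, read depth is unknown, and the deposited lists give positions and peak values only. No test across samples was therefore possible, and the 95% intervals given (Wilson method) reflect only how many summits or gaps were counted; summits are not independent replicates.

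REPO-1 is the worm counterpart of the splicing factor SF3A2. Together with its partners in SF3a it belongs to the U2 snRNP, which recognises the branch site when introns are removed from pre-mRNA. Splicing factors can be recovered with chromatin because much splicing takes place while RNA polymerase II is still transcribing the gene. A gap between genes on the same strand holds a 3′ end at one side, where transcripts are cleaved and polyadenylated and polymerase later stops, and the 5′ region of the next gene at the other. In C. elegans many mRNAs receive a spliced leader by trans-splicing, so an annotated 5′ end is often the trans-splice site and the true start of transcription can lie upstream of it.

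The sequences around the strongest summits of each side show what kind of DNA the peaks covered. They were taken from the 4 strongest summits on chromosomes II to V for each side, of which 1 on the 3′ side is not shown, that had no annotated non-coding gene within 200 bp, with 60 bases on either side of the summit, read from the RefSeq copy of WBcel235 in the direction of the genes. Each line names the gene upstream of the gap and then the gene downstream. Capitals mark the motifs AATAAA, the polyadenylation signal, TTTCAG, a splice acceptor sequence, GGTTCGA, part of the B box of tRNA genes, and GCGC. The first 3 lie nearer the 3′ end of the upstream gene.
mak-1 to atf-2, chrII:8747520-8747640, plus strand: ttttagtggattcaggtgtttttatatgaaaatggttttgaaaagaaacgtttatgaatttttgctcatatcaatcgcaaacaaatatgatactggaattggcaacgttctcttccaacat
lgg-1 to C32D5.8, chrII:6346617-6346737, minus strand: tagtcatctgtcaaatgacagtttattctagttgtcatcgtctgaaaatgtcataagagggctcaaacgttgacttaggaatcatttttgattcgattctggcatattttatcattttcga
hmg-1.1 to Y54G11A.2, chrII:14251541-14251661, plus strand: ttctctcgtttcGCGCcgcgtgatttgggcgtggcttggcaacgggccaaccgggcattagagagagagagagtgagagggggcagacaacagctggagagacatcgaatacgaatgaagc

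The next 4 lie nearer the 5′ end of the downstream gene.
acs-19 to rpl-3, chrIII:3867490-3867610, plus strand: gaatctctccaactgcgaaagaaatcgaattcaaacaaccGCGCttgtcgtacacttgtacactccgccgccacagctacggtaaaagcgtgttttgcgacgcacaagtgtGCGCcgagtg
C06A1.6 to cdc-48.1, chrII:10563502-10563622, minus strand: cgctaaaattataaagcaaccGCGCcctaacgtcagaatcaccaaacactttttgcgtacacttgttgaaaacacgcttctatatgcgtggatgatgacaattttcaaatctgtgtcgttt
K07B1.7 to tos-1, chrV:9344248-9344368, minus strand: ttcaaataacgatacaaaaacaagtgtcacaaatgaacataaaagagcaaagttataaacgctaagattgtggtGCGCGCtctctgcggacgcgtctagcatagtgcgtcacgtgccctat
wrt-5 to pcn-1, chrIV:4049657-4049777, minus strand: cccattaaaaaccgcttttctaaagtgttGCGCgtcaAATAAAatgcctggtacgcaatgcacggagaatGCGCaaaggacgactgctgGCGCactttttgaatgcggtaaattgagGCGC

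GCGC was present in printed windows of both sides, and the mak-1 and lgg-1 windows held none of the 4 motifs. A single AATAAA was present, in the pcn-1 window. The counts over all summits are given with the base composition further on.

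REPO-1 summits in these gaps lay more often beside the upstream gene's 3′ end than beside the downstream gene's 5′ end. Of 283 summits, 188 were nearer the 3′ end (66.4%, interval 60.7 to 71.7) and 95 were nearer the 5′ end (33.6%). In every gap the stretch nearer either end is equally long, so summits spread evenly along the gaps would give 50%. In the replicates' own lists, each taken to the same number of strongest peaks as the replicated list, the share nearer the 3′ end was 69.0% for replicate 1 (178 of 258) and 66.1% for replicate 2 (183 of 277). It was 62.2% in gaps on the plus strand (84 of 135) and 70.3% on the minus strand (104 of 148), and between 62.7% (chromosome IV, interval 49.0 to 74.7) and 70.4% (chromosome I, interval 57.2 to 80.9) on single autosomes. In the plot of positions, most 3′ summits lie closer to the bottom edge the longer the gap, while the 5′ summits spread over the upper part.

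**Figure D1:**
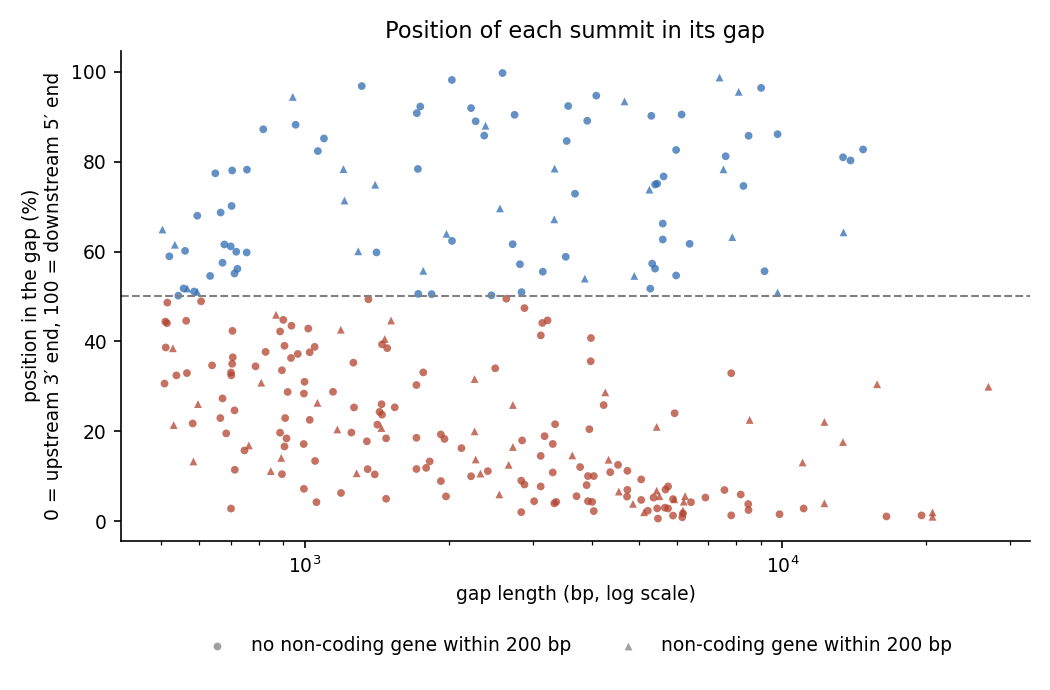
Position of each of the 283 summits within its gap, in percent of the gap from the upstream gene's 3′ end (0) to the downstream gene's 5′ end (100), against gap length in bp on a log scale. Red points, 188 in all, are nearer the 3′ end and blue points, 95 in all, nearer the 5′ end; triangles have an annotated non-coding gene within 200 bp, and the dashed line is the middle of the gap.

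A summit on either side was an uncommon event for a single gap. Of the 5454 gaps, 248 held a summit (4.55%, interval 4.03 to 5.13), against a background of 4.79% over all autosomal gaps over 500 bp, whatever the direction of their genes. The share of gaps with a summit nearer the 3′ end was 2.99% (163 gaps), and with a summit nearer the 5′ end 1.67% (91 gaps). In all, 213 gaps held 1 summit, 35 held 2 and none held more. The share of autosomal summits in these gaps, 19.0%, was also close to their 18.6% share of the sequence.

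Measured from gene ends, the preference for the 3′ side was seen over most gap lengths. Gaps of up to 1000 bp had 51 of 77 summits nearer the 3′ end (66.2%, interval 55.1 to 75.8), gaps of 1000 to 2000 bp had 41 of 56 (73.2%, interval 60.4 to 83.0), and gaps of 2000 to 5000 bp had 52 of 77 (67.5%, interval 56.5 to 76.9). In gaps over 5000 bp the share was 60.3% (44 of 73), and its interval, 48.8 to 70.7, included 50%. The intervals of the 4 length classes overlapped, so no trend with length was resolved. A summit was held by 70 of 1773 gaps in the shortest class (3.95%), by 52 of 1446 and 65 of 1404 gaps in the next classes, and by 61 of 831 gaps in the longest (7.34%, interval 5.76 to 9.32). Per length of sequence the number was lower in each longer class, from 59.3 summits per Mb in the shortest class to 27.4, 17.2 and 9.68 in the longer ones.

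**Figure D2:**
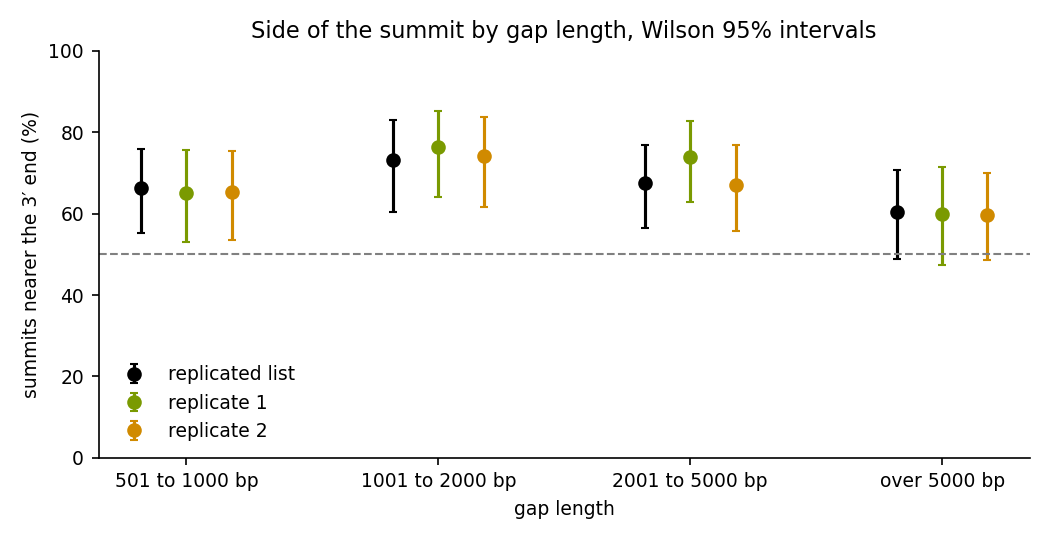
Share of summits nearer the upstream gene's 3′ end, in percent, for 4 classes of gap length, from the replicated list (black) and from the strongest peaks of replicate 1 (green) and replicate 2 (orange). Bars are Wilson 95% intervals and the dashed line is 50%; the replicated list runs from 60.3% to 73.2%, and the longest class is the one whose intervals include 50%.

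The 2 replicates gave like values in each class. In gaps of 1000 to 2000 bp the share was 76.3% in replicate 1 and 74.1% in replicate 2, and in gaps of 2000 to 5000 bp it was 74.0% and 67.1%. In gaps over 5000 bp 36 of 60 and 46 of 77 summits were nearer the 3′ end, again with intervals that included 50%.

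The reference point for distance and the way gaps were drawn both mattered. Annotated bases extended beyond the stop codon at 78.7% of the bordering 3′ ends and before the start codon at 73.0% of the bordering 5′ ends. Their extent differed, with a median of 86 bases from coding end to gene 3′ end and 13 from gene 5′ end to coding start. Measured from coding sequence ends in the same gaps, 167 of 283 summits were nearer the upstream gene (59.0%, interval 53.2 to 64.6). Gaps redrawn between coding sequences are another set, of 6711 gaps, with lengths measured anew and untranslated sequence included. In that set 199 of 393 summits were nearer the upstream gene (50.6%, interval 45.7 to 55.6), so the preference for the 3′ side was lost over all its gaps. By length, 31 of 116 summits in gaps of up to 1000 bp were nearer the upstream gene (26.7%), the reverse of the value between gene ends. The length classes of the 2 sets hold different gaps. Shares by length from coding ends in the same gaps were not counted, so the change of reference point and of gaps cannot be told apart. Gaps of 1000 to 2000 bp gave 52.2% (interval 42.1 to 62.1) against 73.2% between gene ends, gaps of 2000 to 5000 bp gave 66.3% and gaps over 5000 bp 63.1%.

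Within the gaps, most summits beside 3′ ends lay in the first 500 bp after the gene. Summits inside genes fall outside the rule, so these distances do not show how occupancy runs on into the gene. The peak region reached over the nearer gene end for 61 of 188 summits on the 3′ side (32.4%) and 20 of 95 on the 5′ side (21.1%). Their median distance from the annotated 3′ end was 285.5 bp (quartiles 173.5 and 447), and 149 of 188 lay within 500 bp. Summits beside 5′ ends were more scattered, with a median of 373 bp upstream (quartiles 256 and 1358.5) and 49 of 95 within 500 bp. Measured from coding ends, the median distances of the same summits were 539.5 bp on the 3′ side and 584 bp on the 5′ side. In gaps of up to 1000 bp no summit can be farther than 500 bp from the nearer end. That class held 51 of the 3′ and 26 of the 5′ summits, so part of both counts was fixed by gap length. Per 1000 gaps long enough to contain the bin in the nearer stretch, the bins from 101 to 400 bp after a 3′ end held 7.70, 7.54 and 7.94 summits, while the same bins before a 5′ end held 2.20, 2.58 and 1.64. Beyond 600 bp from the 3′ end no bin up to 2000 bp held more than 2.58 per 1000. In the replicated list 1472 of 1789 summits were region middles and the median region width was 436 bp, so bins of 100 bp are finer than the positions. In gaps under 1000 bp the zones of both ends meet, and 22 summits counted to a 3′ end were also within 500 bp of the downstream 5′ end, while 20 counted to a 5′ end were also within 500 bp of the upstream 3′ end.

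**Figure D3:**
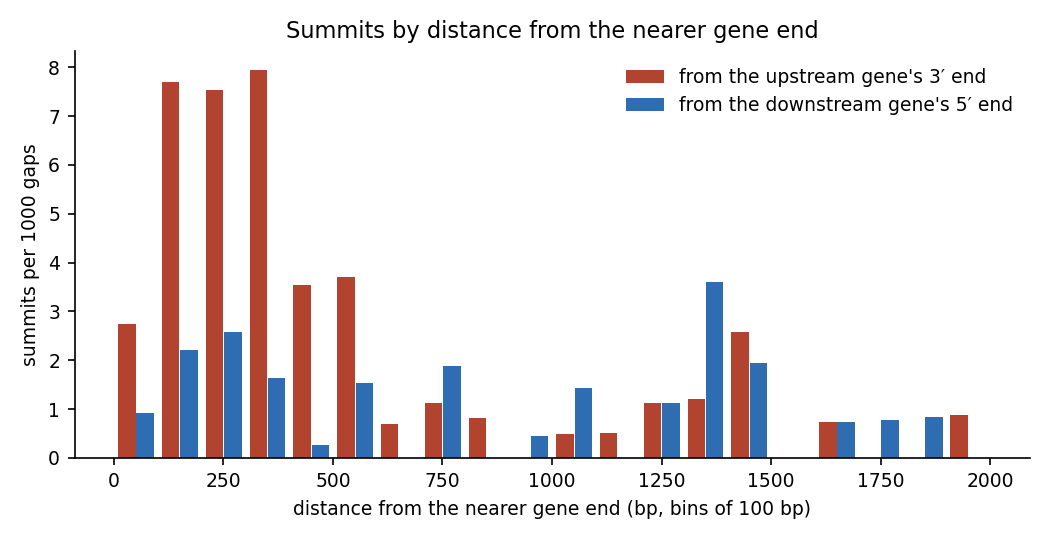
Summits per 1000 gaps in bins of 100 bp by distance from the nearer gene end, in bp, for the upstream gene's 3′ end (red) and the downstream gene's 5′ end (blue). Each bin counts gaps long enough to contain it on the nearer side, so both colours share a denominator; red exceeds blue in every bin up to 700 bp and peaks at 7.94 between 301 and 400 bp.

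Gaps over 2000 bp keep both ends apart and gave the clearest contrast. These 2235 gaps held 150 summits, of which 65 lay within 500 bp of the 3′ end (43.3%, interval 35.7 to 51.3) and 14 within 500 bp of the 5′ end (9.33%, interval 5.64 to 15.1). This corresponds to 58.2 and 12.5 summits per Mb. Replicate 1 had 61 and 13 of 133 summits in these windows, and replicate 2 had 67 and 12 of 150. Without summits near non-coding genes the counts were 47 and 10 of 106. Measured from coding sequence instead of gene ends, 33 summits lay within 500 bp of the upstream stop codon (22.0%, interval 16.1 to 29.3) and 11 within 500 bp of the downstream start codon (7.33%, interval 4.14 to 12.7), a smaller contrast. Within 1000 bp the counts were 76 and 17.

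The interior of the long gaps showed the opposite order with a small number of summits. Farther than 1000 bp from both genes, gaps over 2000 bp held 51 summits, or 6.76 per Mb, and 18 of these were nearer the 3′ end (35.3%, interval 23.6 to 49.0). This interior made up 62.8% of the sequence of gaps over 2000 bp and held 51 of their 150 summits. The replicates' own lists had 14 of 37 and 14 of 48 interior summits nearer the 3′ end, and the interval for replicate 1, 24.1 to 53.9, included 50%. A non-coding gene lay within 200 bp of 16 of the 51 interior summits (31.4%) and of 28 of the 99 summits within 1000 bp of an end (28.3%). How much of the gap sequence lies that near such a gene was not counted.

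The strongest interior peaks are those at V: 1151355 to 1151659 and III: 4282074 to 4282199. The first, of signal 675.8 and rank 22, lay 4799 bp before cmd-1, the calmodulin gene, and 4971 bp after cutl-22, at the lincRNA gene linc-128, and ranked 28 in replicate 1 and 18 in replicate 2. The second, of signal 385.5 and rank 115, lay 1897 bp before sup-26, which encodes an RNA-binding protein, and ranked 154 and 74 in the replicates. Further examples were a peak 2548 bp before the nuclear hormone receptor gene nhr-88 (II: 2973988 to 2974204, rank 175) and a peak 8080 bp after Y23H5B.5 at the snoRNA gene Y23H5B.10 (I: 2514121 to 2514556, rank 127). The last was also the strongest 3′-side summit of a gap over 5000 bp, with dmsr-2 at its far end.

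Among the 10 strongest summits nearer a 3′ end, 5 lay near an annotated non-coding gene, a count without a background share over all gap sequence. The top 2 sat at SL2 spliced leader RNA genes, whose short leader is joined to transcripts of genes inside operons. One was 95 bp after R12E2.11, in the gap before the oocyte gene egg-5 (I: 4171991 to 4172718, signal 997.0), at sls-2.4. The other was 705 bp after the insulin-like peptide gene ins-13, before C17C3.24 (II: 5543424 to 5544189, signal 637.6), at sls-2.2. They ranked 2 and 4, and 26 and 26, in replicates 1 and 2. The remaining examples with a non-coding gene were a peak 280 bp after the aldehyde dehydrogenase gene alh-1 and before cox-6A (III: 5080723 to 5081158, rank 95, snRNA gene F54D8.7), a peak 400 bp after F31F7.1 and before fil-2 (V: 6278137 to 6278760, rank 106, a piRNA gene), and a peak 204 bp after cpl-1 (V: 16592201 to 16592592, rank 112, ncRNA gene T03E6.13). The gene cpl-1 encodes a cathepsin L protease, and the next gene, the chemoreceptor gene srh-269, began 326 bp beyond that summit.

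The other 5 of these 10 had no non-coding gene within 200 bp, and 4 of them are described here. A summit of signal 626.8 lay 222 bp after F26A3.4 and 418 bp before ego-1, which encodes an RNA-dependent RNA polymerase (I: 7656402 to 7657575), and ranked 27 and 33 in the replicates. The summit 330 bp after mak-1, a MAP kinase-activated protein kinase gene, had a signal of 570.4 in a region that reached back over the gene (II: 8745002 to 8748101, ranks 45 and 34), with the next gene, atf-2, 4406 bp away. After lgg-1, which encodes the Atg8 protein of autophagosomes, summits stood at 283 bp (signal 534.6) and 72 bp (signal 167.1) in a single region (II: 6346343 to 6347117, ranks 52 and 43). The gap after hmg-1.1, an HMG box gene, also held a pair of summits, at 151 and 354 bp, with signals of 488.9 and 315.2.

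Some genes of metabolism carried a 3′ peak more than 1000 bp from the next gene. They were chosen after their values were seen, and no share over all genes of metabolism was counted. The malate dehydrogenase gene mdh-2 had a summit 281 bp after its 3′ end and 5090 bp before let-765 (signal 334.2, ranks 276 and 122). The stronger of 2 summits after fat-1, a fatty acid desaturase gene, stood at 239 bp in a gap of 5061 bp before another desaturase gene, fat-2. The stronger summits after gln-3 and pyc-1, genes of glutamine synthetase and pyruvate carboxylase, stood at 400 and 445 bp in gaps of 20625 and 5761 bp, the former near piRNA genes. After vha-14, which encodes a subunit of the vacuolar ATPase, summits lay at 318 and 519 bp in a gap of 1712 bp (signals 323.6 and 146.1). Every summit of these 5 gaps was more than 1000 bp from the downstream gene.

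The 10 strongest summits nearer a 5′ end were led by the strongest peak of the whole list, 304 bp before rpl-3, which encodes ribosomal protein L3, and 452 bp after acs-19 (signal 1217.6, rank 1 in both replicates). Next, apart from the interior peak at linc-128, came the summit 155 bp before cdc-48.1, an AAA ATPase gene of the p97 family (II: 10563447 to 10563691, signal 610.8, ranks 32 and 36). It was followed by 206 bp before wwp-1, a ubiquitin ligase gene, and 329 bp after icd-2, at the ncRNA gene Y65B4BR.10 (signal 545.4). The peak before hsp-1, an Hsc70 chaperone gene, lay 347 bp from it and 864 bp after clec-196, near the ncRNA gene F26D10.23 (signal 517.9, ranks 39 and 129). The gene tos-1 had a summit 105 bp upstream (V: 9344141 to 9344459, signal 484.6, ranks 51 and 98). The summit 269 bp before pcn-1, which encodes the replication clamp PCNA, was 289 bp from the 3′ end of wrt-5, so the side rests on 20 bp (signal 404.3, ranks 131 and 77). The remaining 3 were interior or nearly so, at sup-26 and nhr-88 and 779 bp before fbxa-83 at a snoRNA gene (rank 167).

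A call to one side was thus sometimes close, and clec-126 shows the limit. Its summit stood 292 bp before the C-type lectin gene and 304 bp after its neighbour clec-125, with a tRNA gene within 200 bp (signal 327.9, ranks 300 and 159). Most summits in the replicated list were set at the middle of a region of fixed width, 1472 of 1789, and the median width was 436 bp, so a small difference between both distances does not resolve a side.

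Summits on both sides of a gap were rare, in 6 of 5454 gaps. The actin genes act-2 and act-3 flank a gap of 2278 bp with a summit 313 bp after act-2 (signal 202.3, ranks 718 and 585, near the ncRNA gene T04C12.14) and a weaker summit 251 bp before act-3 (signal 135.2, ranks 1210 and 10082). In the gap after nuo-4, a complex I subunit gene, summits lay 223 bp after nuo-4 (signal 181.4) and 180 bp before ogt-1, the gene of the O-GlcNAc transferase (signal 133.6). The gap from B0280.9 to nhr-10 had summits 155 bp after the former (signal 140.2) and 1360 bp before the latter (signal 143.5), and that from C17C3.1 to T25E4.1 had them at 132 bp after (signal 290.1) and 1093 bp before (signal 139.6). In the remaining gaps, ribo-1 to T22D1.3 and col-42 to egas-1, the gap was 672 and 712 bp long and the summits stood 184 and 387 bp after ribo-1 and 176 and 393 bp after col-42. There the regions of both summits overlapped. Both summits also matched the same region in each replicate (ranks 1303 and 713 at ribo-1, 740 and 2168 at col-42). Separate peaks at both ends were thus not resolved in these gaps. The summit nearer the 3′ end had the higher signal in 5 of the 6 gaps, all but that of B0280.9; the margin was smallest at col-42, with 156.1 against 149.8.

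Gene lists were set against the shares over all gaps, 2.99% for the 3′ side and 1.67% for the 5′ side. Ribosomal protein genes had 3 of 9 bordering gaps with a summit after their 3′ end (rps-6 at 171 bp, rpl-31 at 299 bp, rps-27 at 248 bp) and 4 of 15 with one before their 5′ end (rpl-3, rpl-41.2 at 272 bp, rpl-29 at 261 bp and rpl-14 at 271 bp). The rpl-14 summit was also 273 bp after ikb-1, so its side is not resolved, and it ranked 905 and 2649 in the replicates. That of rps-27 ranked 5600 in replicate 1 and 532 in replicate 2. The respiratory chain list had 3 of 11 on the 3′ side, cox-5A (312 bp, signal 232.0), nuo-4 and cox-5B (206 bp, signal 149.8), and 0 of 3 on the 5′ side. Chaperone and heat shock genes had 2 of 17 after the 3′ end, the mitochondrial Hsp70 gene hsp-6 (232 and 20 bp, signals 320.2 and 195.9) and the small heat shock gene hsp-16.2 (75 bp, signal 134.1), and 1 of 9 before the 5′ end, hsp-1. The hsp-16.2 summit ranked 1843 and 3142 in the replicates, outside the 1789 strongest regions of both. Translation factor genes had 1 of 7 on either side, eef-2 with summits at 74 and 273 bp after the gene (signals 224.0 and 199.4) and eif-3.B with a summit 263 bp upstream. These shares rest on 3 to 17 gaps a list, and the lists were chosen with earlier results of these data known.

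In the splicing list 1 of 17 gaps after a 3′ end had a summit, that of the DEAD-box helicase gene ddx-17 (256 and 57 bp, signals 237.6 and 132.1), and 0 of 7 before a 5′ end, which allows a share of up to 42.9%. Here and below, the limit that a count of 0 allows is 3 counts of the total, not a Wilson bound. Proteasome genes had 1 of 4 on the 3′ side, rpt-1 (250 bp, signal 363.7, near the snRNA gene T11F9.15 and 561 bp before snr-4), and 0 of 2 on the 5′ side. The vesicle traffic list had vps-25 (1 of 16) on the 3′ side and sar-1 (1 of 11) on the 5′ side. Histone genes had 0 of 16 and 0 of 7, which allow up to 18.8% and 42.9%, and no yolk protein gene bordered such a gap.

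Chemoreceptor genes, a large family active in a small number of neurons, bordered 587 gaps with a 3′ end and 587 with a 5′ end, and none of these held a summit on the chemoreceptor's side (0 of 587 each, which allows a share of up to 0.511%). C-type lectin genes had 1 of 96 (clec-182, at 1619 bp) and 2 of 91 (clec-126 and clec-169, the latter at 714 bp). Collagen genes had 1 of 42 on either side, col-42 and col-98, the col-98 summit being 2888 bp upstream. Nuclear hormone receptor genes had 1 of 91 on the 3′ side (nhr-105) and 4 of 109 on the 5′ side, of which nhr-49 alone lay within 500 bp. The nhr-49 summit was 287 bp upstream of the gene and 300 bp after K10C3.5, so its side is not resolved. Neuropeptide genes had 3 of 46 on the 3′ side, ins-13, nlp-4 (126 bp) and ins-37 (596 bp), each with a non-coding gene within 200 bp of the summit, and 0 of 56 on the 5′ side, which allows up to 5.36%.

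Non-coding genes lay near a minority of the summits on both sides. An annotated non-coding gene or pseudogene lay within 200 bp of 71 of 283 summits (25.1%), and 46 of these 71 were nearer the 3′ end (64.8%, interval 53.2 to 74.9). The share of all gap sequence that near such a gene was not counted. These counts therefore have no background and do not show that summits favour non-coding genes. Among the 212 without one, 142 were nearer the 3′ end (67.0%, interval 60.4 to 73.0). By the nearest gene, the 3′ side had 8 snoRNA, 5 snRNA, 5 piRNA and 1 tRNA genes and the 5′ side had 2, 0, 0 and 6. ncRNA genes without a further class were nearest in 18 and 13 cases.

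The DNA under the summits was richer in G and C than the sequence of all gaps, most of which held no summit. In windows of 121 bp, read in the direction of the genes, the median GC content was 41.3% (quartiles 33.9 and 47.1) at summits nearer a 3′ end and 47.9% (quartiles 41.3 and 52.9) at summits nearer a 5′ end. All 124262 windows of that length that tile the gaps had a median of 33.1%, as did the windows within 500 bp of either end. Summit windows could run over a gene end, while the tiling windows stayed inside the gaps. Gaps with a summit were not tiled apart. GC content thus moved with both occupancy and side, and its part in the result was not tested. GCGC, which was added to the motifs after the printed sequences were seen and reads the same on both strands, was present in 61 of 188 windows at 3′ summits (32.4%), in 47 of 95 at 5′ summits (49.5%) and in 11.2% of all gap windows. AATAAA, searched on the strand of the genes, was found in 9.57% and 6.32% of summit windows and 13.8% of all gap windows, and TTTCAG, on the same strand, in 6.38%, 3.16% and 11.2%. GGTTCGA, searched on both strands, was found in 1 window at a 3′ summit and 4 at a 5′ summit (4.21%), against 0.885% of all.

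The genes next to occupied gaps were somewhat longer than those next to other gaps. Upstream genes with a summit after their 3′ end had a median length of 2449 bp (163 gaps, quartiles 1444 and 3664), and upstream genes of gaps without a summit 1890 bp (5206 gaps, quartiles 1201 and 3359). Their median intron number was 4 in both, and 1 of 163 was intronless (0.613%) against 3.32%. Downstream genes with a summit before their 5′ end had a median length of 3147 bp (91 gaps) against 2063 bp, with 4 introns in both. Upstream genes of gaps whose summit was counted to the next gene's 5′ end were of like length, with a median of 2379 bp and 5 introns. Downstream genes of gaps whose summit was counted to the upstream gene's 3′ end had a median of 2749 bp and 5 introns. Greater length was thus not limited to the gene on the side of the summit. The quartiles overlapped throughout, and expression was not measured.

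Most of these peaks were also found in the replicates' own lists. The replicated list was itself obtained from the deposited region lists, so this overlap is not independent support for the peaks. Of the 283, 184 overlapped one of the 1789 strongest regions of both replicates (65.0%, interval 59.3 to 70.3), close to the 64.0% of all autosomal replicated peaks, and 9 overlapped none in either. The share was 69.1% for summits nearer a 3′ end (130 of 188, interval 62.2 to 75.3) and 56.8% for those nearer a 5′ end (54 of 95, interval 46.8 to 66.3); the intervals overlapped, and the difference was not tested. Median signal was 175.6 and 165.2, with ranges of 132.1 to 997.0 and 131.8 to 1217.6 that overlap almost completely. The summit 93 bp before the potassium channel gene kvs-3 (rank 328, near a tRNA gene) ranked 314 in replicate 1 and had no overlapping region among the 30000 of replicate 2. The same held for a summit 301 bp after R107.5, before ikke-1 (rank 364, and 224 in replicate 1). A second summit in that gap, 94 bp after R107.5 (rank 1101), did have an overlapping region in both replicates, ranked 224 and 250. The gap itself was thus not without a region in replicate 2.

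The preference for the 3′ side weakened in the lower ranks of the pooled list. The 500 strongest had 58 of 85 summits nearer the 3′ end (68.2%), and ranks 1790 to 5000, below the replicated list, still had 243 of 366 (66.4%, interval 61.4 to 71.0). From rank 5001 to 10000 the share was 56.5% (interval 52.0 to 60.9), and from rank 20001 to 30000 it was 51.3% (interval 48.2 to 54.4), which includes 50%. The gaps took 20.3% of the autosomal summits among the 500 strongest and 11.5% in the last class.

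**Figure D4:**
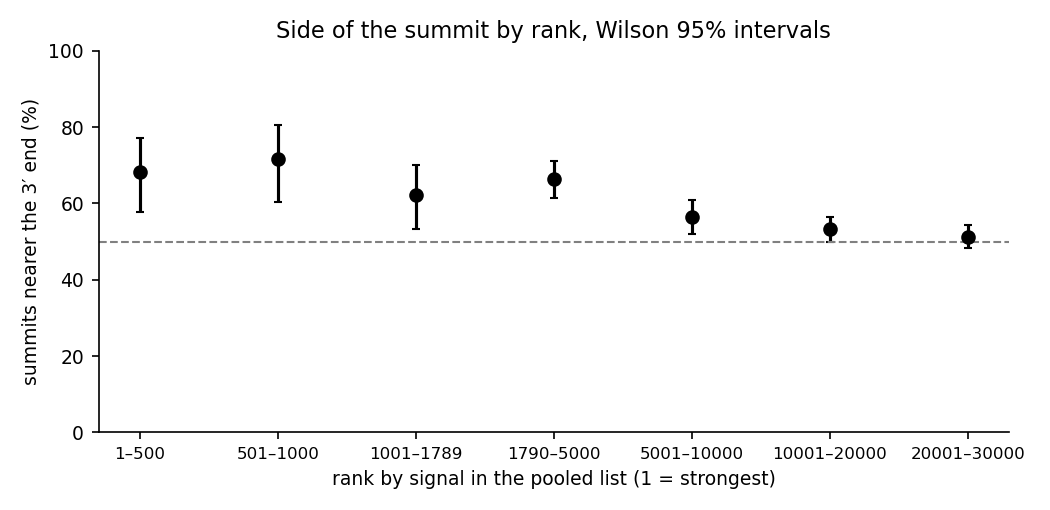
Share of gap summits nearer the upstream gene's 3′ end, in percent, by rank in the list called on both replicates together (rank 1 is the strongest; ranks up to 1789 form the replicated list). Bars are Wilson 95% intervals and the dashed line is 50%; the share is 68.2% in the first class and 51.3% in the last.

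Equal windows at the ends of other autosomal gaps over 500 bp put these values in context. In the first 250 bp of the gap, 79 of 5454 same-strand 3′ ends held a summit (1.45%, interval 1.16 to 1.80), against 24 of 2478 3′ ends in convergent gaps (0.969%, interval 0.652 to 1.44), where a pair of genes end towards each other. Same-strand 5′ ends had 23 of 5454 (0.422%, interval 0.281 to 0.632), and 5′ ends in divergent gaps, where a pair of genes start away from each other, had 63 of 5544 (1.14%, interval 0.889 to 1.45). In the next 250 bp, in gaps over 1000 bp, the shares were 1.39%, 0.712%, 0.353% and 0.849% in the same order. The intervals of same-strand and divergent 5′ ends did not overlap, while those of same-strand and convergent 3′ ends did. Those of same-strand 3′ ends and divergent 5′ ends also overlapped in both windows. Without summits near non-coding genes the same-strand and divergent 5′ values were 0.348% and 0.938% in the first window, and 0.190% and 0.425% with overlapping intervals in the second. On X, 49 of 83 summits in 1172 gaps of the same kind were nearer the 3′ end (59.0%, interval 48.3 to 69.0), an interval that includes both 50% and the autosomal value.

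**Figure D5:**
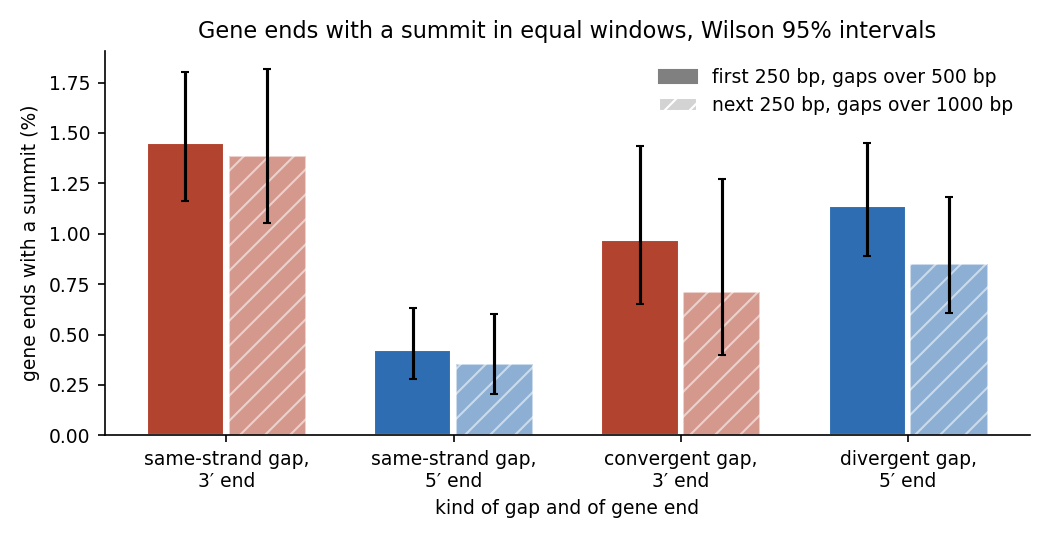
Share of gene ends, in percent, with a replicated summit in the first 250 bp of the gap (solid bars, gaps over 500 bp) or in the next 250 bp (hatched bars, gaps over 1000 bp), for 3′ ends (red) and 5′ ends (blue) in same-strand, convergent and divergent autosomal gaps. Error bars are Wilson 95% intervals. Same-strand 5′ ends are lowest at 0.422% and 0.353%, and same-strand 3′ ends highest at 1.45% and 1.39%. The intervals of same-strand 3′ ends overlap those of convergent 3′ ends and divergent 5′ ends.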

How the data were processed

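REPO-1 ChIP-seq of whole young adult worms was used in its ce11 version, with 2 replicates. The deposited files are region lists of each replicate and of both together, with no significance threshold and each derived from its alignment and a further one, and the replicated list obtained from these by IDR, per the deposited text files; all held summits in narrowPeak layout. The authors deposited a signal value per peak, of unstated scale, used here only for ranking within a list. The deposited −log10 q-value was tied at its maximum for 1354 of 1789 replicated peaks and was not used. The replicated list was the 1789 strongest rows of the 30000 in the list of both together. For aligner, caller and IDR threshold the sources used here name nothing.

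Summits (region start plus offset, written 1-based) were placed in gaps between Ensembl release 115 protein-coding genes on WBcel235, the same assembly, and assigned to the nearer gene end. Non-coding genes within 200 bp were recorded, and overlap between lists needed 1 bp. Intervals of shares are Wilson 95% intervals; for a gene list with no summit the limit is 3 counts of the total. With 1 group no test was run. Members and gene lists were chosen with earlier results of these data known. Genes named are those beside the 10 strongest summits of each side, the strongest of each length class, 5 gaps with summits on both sides and up to 3 per list and side; nuo-4 with ogt-1 (the 6 gaps are all given), rpl-14, kvs-3, R107.5 and those said so in the text were chosen after their values were seen. Python 3.11.15, numpy 2.4.6, scipy 1.17.1, pandas 2.3.3 and matplotlib 3.10.9 were used, and placement was tested on simulated data. GCGC and 3 alternatives were added after the data were seen. Of the 10 strongest summits nearer a 3′ end, 1 is not reported here.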

Additional observations from a re-analysis of the deposited data

How the results depend on the processing

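The share nearer the 3′ end stayed above 50%, with an interval that did not include it, when other genes were allowed over a gap (63.9%), with gaps over 1000 bp, with peaks at or above the median signal (69.9%), with region midpoints, with regions of identical coordinates counted once (overlapping regions were still counted apart), without summits near non-coding genes and in either replicate alone. On both strands apart and with distances from coding ends in the same gaps, alternatives added after the data were seen, it was 62.2%, 70.3% and 59.0%. Drawing gaps between coding sequences gave 50.6% for all gaps, 26.7% for gaps of up to 1000 bp, 52.2% for 1000 to 2000 bp and 63.1% over 5000 bp; that setting adds gaps and includes untranslated sequence by construction. The share of gaps with a summit was then 5.20%, and the share of summits within 250 bp of the nearer end 25.4%. The share of gaps with a summit was 2.46% at or above the median signal and 3.39% without summits near non-coding genes. Within 250 bp lay 27.7% of summits in gaps over 1000 bp, and 30.6% to 36.3% in single replicates, the lower value without replicate 2. Peaks found in both replicates were 95.1% of those at or above the median signal. No paired analysis was possible because there was 1 group. Read depth is unknown, so peaks below the list's threshold cannot be called absent.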
